A study of Mus musculus with 48 samples.

Results

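DNA methylation was followed at 8 genes of the opioid and endocannabinoid systems in the amygdala of mice that differed in Tph2, which encodes the serotonin-synthesizing enzyme of neurons. The genes were the opioid receptors Oprm1, Oprk1, Oprd1 and Oprl1, the cannabinoid receptor Cnr1, and the endocannabinoid enzymes Dagla, Faah and Mgll. Each region of the deposited count table, called a locus here, was taken as a member when it overlapped one of these genes or the 5 kb on either side of it on GRCm38. This gave 56 of 187695 loci, with 13 at Oprm1, 1 at Oprk1, 10 at Oprd1, 1 at Oprl1, 3 at Cnr1, 6 at Dagla, 3 at Faah and 19 at Mgll. Loci are numbered within each gene in the direction of transcription.

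The mice were males of 4 months of age on a C57BL/6 background (backcrossed on C57BL/6N) that carried no inactivated Tph2 allele (Tph2+/+), 1 (Tph2+/-) or 2 (Tph2-/-). The inactivation is constitutive, so it was present in every cell and throughout life. Some were taken as pups from the dam for 3 h per day on postnatal days 2 to 15 (maternal separation, MS). The others were reared as undisturbed controls (C). There were thus 6 groups, each of 8 mice that were sequenced singly. The study assigned whole litters to MS or C, but the labels name no litter. The tests therefore treat the mice as independent. DNA came from the powdered amygdalae of both hemispheres, so all cell types of the tissue were mixed, and it was taken after a series of behavioral tests. Counts of captured DNA hold no expression, and the tissue label could not be checked against cell type markers. Fragments bound by a methyl-CpG-binding domain (MBD) protein were sequenced, so a locus with a higher count yielded more captured, methylated DNA.

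Opioid receptors are G protein-coupled receptors that dampen neuronal firing and transmitter release. Oprm1 encodes the mu receptor, the main target of morphine and endorphins, Oprd1 the delta receptor for enkephalins, Oprk1 the kappa receptor for dynorphins, and Oprl1 the receptor for nociceptin. Endocannabinoids are lipids that a neuron releases to act back on the presynaptic terminal, where the CB1 receptor encoded by Cnr1 inhibits further release. Dagla makes 2-arachidonoylglycerol, Mgll breaks it down, and Faah breaks down anandamide. In the amygdala both systems act on fear, stress responses and social reward.

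Totals per library ranged from 7.72 to 14.1 Mcounts (mega-counts). Levels are given in CPM, counts divided by the TMM-scaled library total in Mcounts, in all 48 libraries. Tests used 46, because replicates 3 and 7 of Tph2-/- MS, whose totals were the lowest of that group, were left out in place of those that the study left out without naming them. Controls carried the sample numbers S1 to S17 and S42 to S48 and MS mice the numbers S18 to S41, so MS and position in this order cannot be told apart. The libraries also differed in how strongly capture favoured CpG-dense DNA, described by a CpG slope per library (log2 change in count per SD of CpG density). Among MS mice its mean was 0.12 ± 0.12 (SD, n = 9) for the numbers S18 to S26 against -0.02 ± 0.06 (n = 15) for S27 to S41. Early controls had -0.02 ± 0.04 (n = 17) and late controls -0.05 ± 0.04 (n = 7).

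Most of the member loci lay inside the genes and away from their starts. Coding exons were overlapped by 21 of the 56 loci (37.5%), against 35.2% of the 96863 loci within 5 kb of any protein-coding gene. Member loci were 937 bp wide at the median and held 17.5 CpG dinucleotides, against 916 bp and 16 for all loci. The CpGs of the loci of each gene, with every locus counted whole, were set against the CpGs of gene and flanks. This share was 36.3% at Oprd1, 29.9% at Oprl1, 18.6% at Mgll and 17.1% at Dagla. It was 15.6% at Cnr1, 11.5% at Faah, 9.94% at Oprm1 and 7.05% at Oprk1. Oprd1 locus 1 reaches 6.31 kb before the gene, past the flank, so the share of Oprd1 includes CpGs from outside it. Over 21773 protein-coding genes the median share was 12.9%, with quartiles of 2.83% and 25.97%. Oprd1 and Oprl1 therefore stood above the upper quartile, and the 6 other genes lay between the quartiles.

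**Figure D1:**
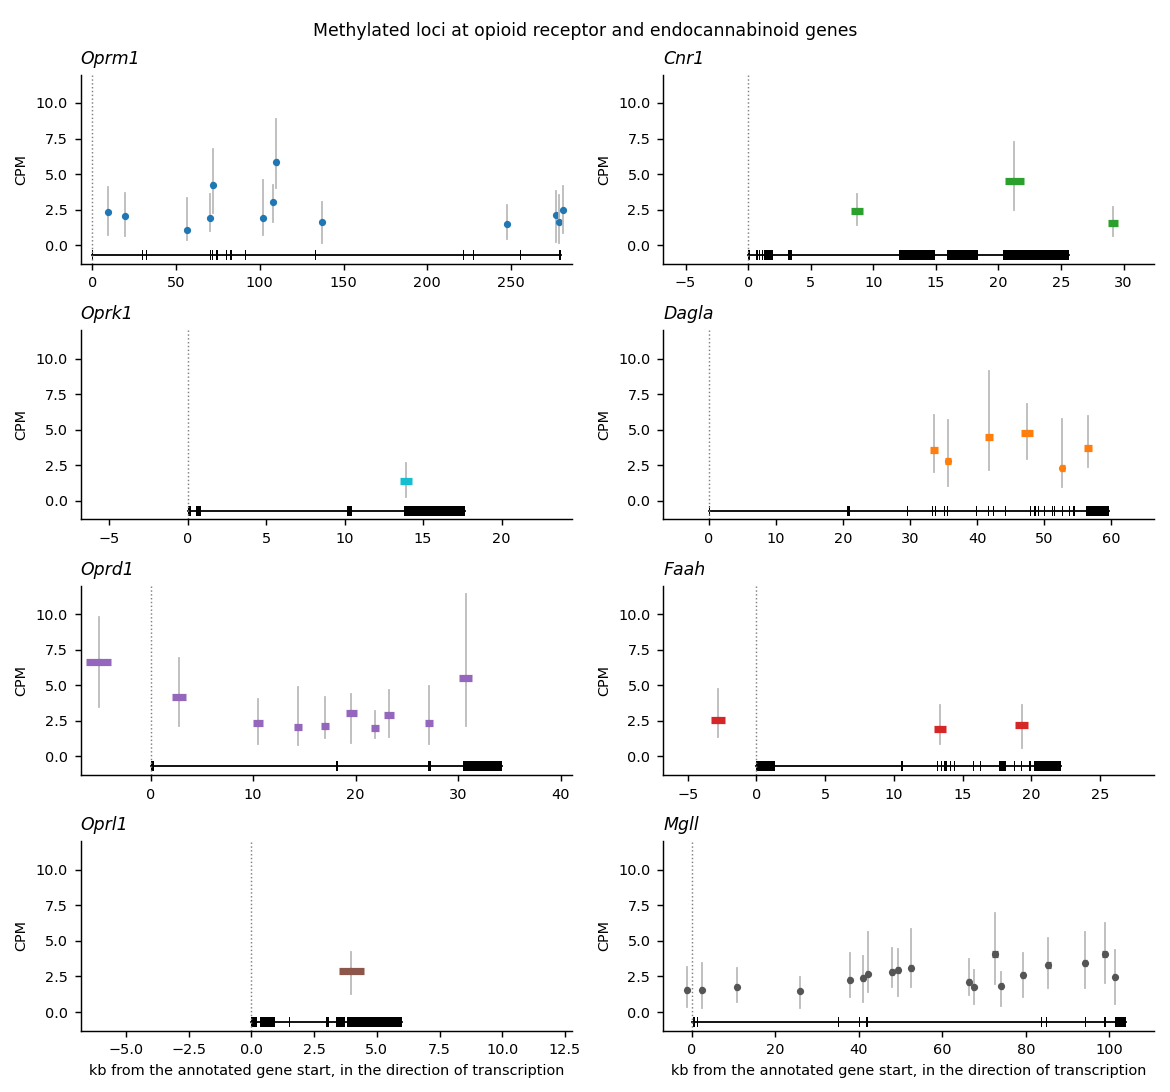
Each panel shows a gene from its annotated start (dotted line, x axis in kb) with exons as black boxes, and each locus as a coloured bar, or a point where it is short on this scale, at its mean CPM over 48 libraries (y axis) with a grey line from the lowest to the highest library. The single locus of Oprk1 and of Oprl1 lies over the coding sequence, while the 19 loci of Mgll are spread over the whole gene.

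Each of the 4 opioid receptor genes had a locus over the same stretch of its coding sequence. This was seen after the sequences were read. The first 120 bases of the CpG-richest window of Oprm1 locus 5 were compared, without gaps, with the 25 loci of the receptor genes. The best match in each other receptor gene lay in a coding exon and was 75.8% identical at Oprk1, 75% at Oprl1 and 74.2% at Oprd1, while no other locus of these genes passed 44.2%. The stretch encodes the end of a membrane helix and the loop that follows it inside the cell, a part of the protein that contacts the G protein. It is printed 5′ to 3′ on the strand of the gene, from RefSeq GRCm38.p6, with CpGs in capitals, because all 4 receptors hold it in a locus. The 4 lines are chr10:6830046-6830165 (+), chr1:5602330-5602449 (+), chr4:132113877-132113996 (-) and chr2:181718880-181718999 (+).

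Oprm1 locus 5: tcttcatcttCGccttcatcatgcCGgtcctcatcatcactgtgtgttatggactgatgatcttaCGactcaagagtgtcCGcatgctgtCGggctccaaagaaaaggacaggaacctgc
Oprk1 locus 1: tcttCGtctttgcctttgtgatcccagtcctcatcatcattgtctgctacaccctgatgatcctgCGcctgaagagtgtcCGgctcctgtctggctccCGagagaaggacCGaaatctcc
Oprd1 locus 10: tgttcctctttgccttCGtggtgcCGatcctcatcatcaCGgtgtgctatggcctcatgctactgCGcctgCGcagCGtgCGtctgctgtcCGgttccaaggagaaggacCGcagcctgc
Oprl1 locus 1: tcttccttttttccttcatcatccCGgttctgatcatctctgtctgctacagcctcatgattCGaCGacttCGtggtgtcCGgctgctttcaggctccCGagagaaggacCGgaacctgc

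The stretch held 5 CpGs in Oprm1, 5 in Oprk1, 7 in Oprl1 and 9 in Oprd1, and 2 of them stood at the same position in all 4. The loci around it differed as well, with 1.51 CpGs per 100 bp in Oprk1 locus 1, 2.18 in Oprm1 locus 5, 2.88 in Oprl1 locus 1 and 4.83 in Oprd1 locus 10. Their levels per kb of locus were 1.94 CPM at Oprk1, 3.18 at Oprm1, 2.83 at Oprl1 and 4.29 at Oprd1. The receptor with the fewest CpGs around the stretch thus had the lowest level per kb and the one with the most had the highest.

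The listed promoter windows held no locus, which is given as a description. Promoter windows (250 bases before to 50 after a transcript start) were listed for 6 of the genes, 13 windows in all. None of the 13 overlapped a locus, against 10.45% of 32851 promoter windows in the whole table. The 13 are few and some of them overlap each other, so a share of 0 does not set these genes apart. Among all windows the share was 9.5% with 0 to 4 CpGs, 23.8% with 5 to 9, 11.8% with 10 to 19 and 1.63% with 20 or more. The windows of Oprd1 (43 CpGs), Cnr1 (40 and 33 at its first 2 starts) and Mgll (32 and 42) belong to the CpG-rich kind. Faah had 16. The third window of Cnr1 (5) and the windows of Oprm1 (3 to 5) and Oprl1 (2 to 5) were CpG-poor. The nearest locus lay 631 bp from the first window of Mgll, 2031 bp from that of Oprd1, 2967 bp from that of Faah and 8692 bp from that of Oprm1. The 250 bases before the first start of Oprd1 at chr4:132144487-132144736 (-) hold 34 CpGs. Those before the first start of Oprm1 at chr10:6758343-6758592 (+) hold 0. They show a CpG-rich and a CpG-free stretch before a start. The later listed windows of Oprm1, from chr10:6788320 and chr10:6788326, each hold 4 CpGs in the 250 bases before the start. Their nearest locus lies at 9570 and 9576 bp.

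Oprd1 promoter: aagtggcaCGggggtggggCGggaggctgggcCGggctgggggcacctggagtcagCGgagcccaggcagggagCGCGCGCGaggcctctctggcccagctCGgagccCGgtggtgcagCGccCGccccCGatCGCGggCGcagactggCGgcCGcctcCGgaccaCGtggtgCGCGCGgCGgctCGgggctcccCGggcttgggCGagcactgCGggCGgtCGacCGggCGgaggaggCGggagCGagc
Oprm1 promoter: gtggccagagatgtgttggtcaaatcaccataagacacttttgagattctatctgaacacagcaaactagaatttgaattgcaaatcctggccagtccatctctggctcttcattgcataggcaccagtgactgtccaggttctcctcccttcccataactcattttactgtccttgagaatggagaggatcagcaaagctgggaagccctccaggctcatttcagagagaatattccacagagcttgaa

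Of the remaining loci, 4 passed the limits of a comparison given below. Their CpG-richest 150 bases without untranslated sequence are printed so that each value can be placed. They lie at chr4:116021426-116021575 (-), chr6:88723249-88723398 (+), chr6:88735059-88735208 (+) and chr6:88823076-88823225 (+). The first lies upstream of Faah and the second upstream of Mgll, the third in an intron of Mgll, and the last at the edge of a coding exon of Mgll.

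Faah locus 1: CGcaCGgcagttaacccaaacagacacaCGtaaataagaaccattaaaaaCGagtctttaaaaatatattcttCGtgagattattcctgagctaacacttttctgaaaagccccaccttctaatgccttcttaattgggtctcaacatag
Mgll locus 1: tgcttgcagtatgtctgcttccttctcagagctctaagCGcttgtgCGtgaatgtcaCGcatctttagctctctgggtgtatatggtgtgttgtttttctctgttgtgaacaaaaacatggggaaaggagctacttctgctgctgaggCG
Mgll locus 3: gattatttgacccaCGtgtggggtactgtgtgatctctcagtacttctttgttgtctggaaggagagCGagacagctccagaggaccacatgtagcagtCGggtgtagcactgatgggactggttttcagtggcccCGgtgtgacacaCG
Mgll locus 18: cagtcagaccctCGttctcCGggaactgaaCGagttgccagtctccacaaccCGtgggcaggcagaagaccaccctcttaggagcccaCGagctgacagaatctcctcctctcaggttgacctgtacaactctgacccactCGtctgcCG

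The level of a locus went with its width and its number of CpGs, and the 2 were not separated. Across the 56 loci the mean CPM rose with the number of CpGs (Pearson's r = 0.865, Spearman's rho = 0.89). It rose somewhat more closely with the width (r = 0.92, rho = 0.925). A wider locus holds more CpGs and more reads, and the loci are peaks called on reads of this study, so these relations are partly built in. The lowest mean was 1.04 CPM at Oprm1 locus 3, an intron locus with 2 CpGs in 463 bp. The highest was 6.63 CPM at Oprd1 locus 1, which spans 2482 bp upstream of Oprd1 and also overlaps the predicted gene Gm13215. Within Oprm1 the highest level was 5.85 CPM at locus 8, an intron locus of 1753 bp with 32 CpGs.

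Per kb of gene and flanks, Oprd1 had the most captured DNA, with 0.751 ± 0.0805 CPM (SD, n = 48). This counts the whole of Oprd1 locus 1, which reaches past the flank. Oprd1 was followed by Mgll with 0.422 ± 0.033, Dagla with 0.311 ± 0.045, Cnr1 with 0.239 ± 0.037, Faah with 0.210 ± 0.037, Oprl1 with 0.178 ± 0.042, Oprm1 with 0.109 ± 0.00889 and Oprk1 with 0.0509 ± 0.021. From Dagla to Oprl1 each gene overlapped the next within 1 SD, and the other neighbours in this order did not. Per kb of locus the genes were closer, from 1.94 CPM at Oprk1 to 3.09 at Dagla. Oprm1 is the longest of the genes at 279617 bp, and its 13 loci covered 11478 bp.

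Differences between groups were read in 8 contrasts. These were MS against C in each genotype and over the 3 genotypes, either mutant genotype against Tph2+/+ with both rearing conditions weighted equally, and the interactions GE1 and GE2. GE1 is the MS effect in Tph2+/- minus that in Tph2+/+, and GE2 is the MS effect in Tph2-/- minus that in Tph2+/+. The limits of the study were an unadjusted p under 0.01 with a log2 fold change beyond 0.2, and a Benjamini-Hochberg adjusted p under 0.05 over all loci or genes was read beside them. Values are from edgeR's quasi-likelihood test.

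Summed over its loci, none of the 8 genes passed the limits in any of the 8 contrasts, in edgeR, DESeq2 or limma. Fewer methylated copies and a smaller share of the cells that carry them cannot be told apart in such mixed tissue. The limits were passed by 1.18% of all tests over 35444 genes. By contrast this was 3.21% for MS over genotypes, 1.39% for MS in Tph2+/+, 0.649% in Tph2+/-, 2.22% in Tph2-/-, 0.384% for Tph2+/-, 0.581% for Tph2-/-, 0.508% for GE1 and 0.533% for GE2. An unadjusted p under 0.05 was reached in 1 of the 64 member tests, against 6.81% of all gene tests. No adjusted p of a member gene was under 0.05 in edgeR, DESeq2 or limma, and the smallest in edgeR was 0.23. Among all genes an adjusted p under 0.05 was held by 0.0282% for MS over genotypes, 0.0226% for Tph2+/- and 0.0367% for Tph2-/-, and by 0.0% in the other 5 contrasts.

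**Figure D2:**
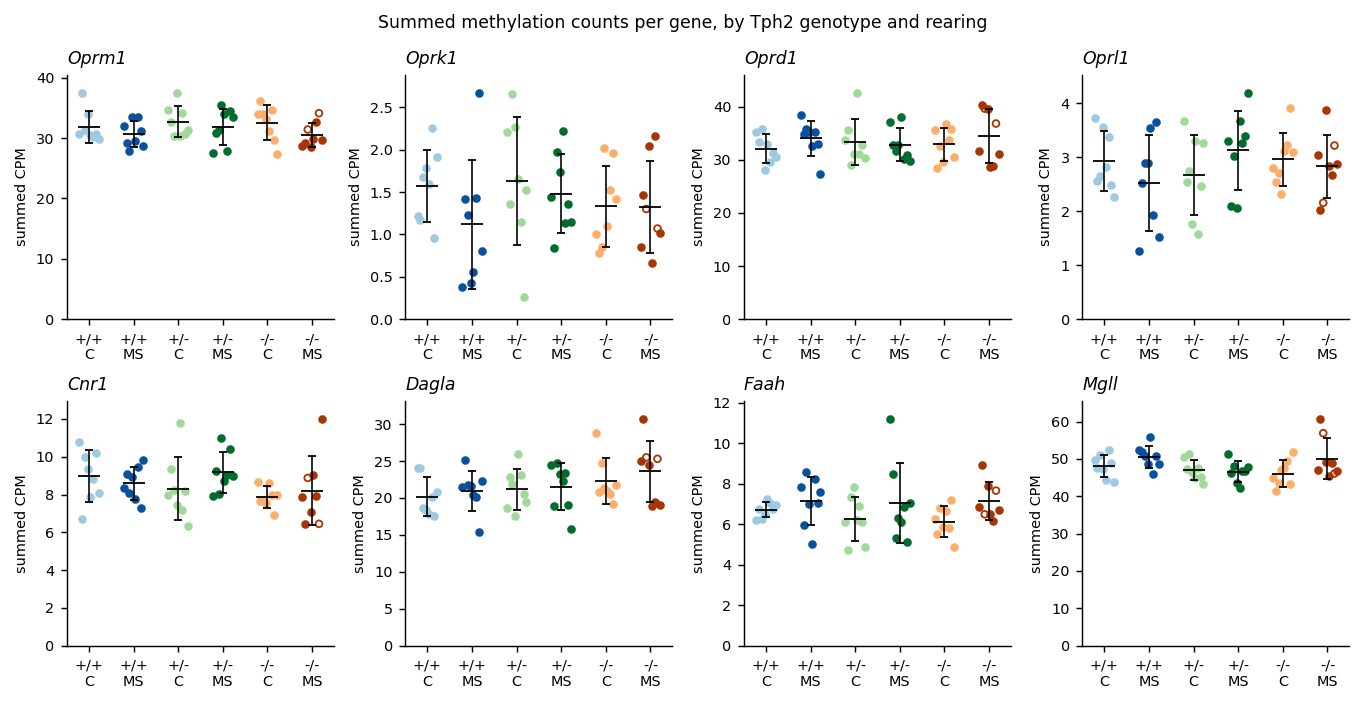
Summed CPM over the loci of each gene (y axis) in the 6 groups of 8 mice (x axis), with 1 point per library, open points for the 2 libraries not fitted, and the mean ± SD of all 8 in black. The groups overlap at each of the 8 genes.

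The receptor genes gave narrow intervals where several loci were summed. In the order Tph2+/+, Tph2+/- and Tph2-/-, Oprm1 had 31.8 ± 2.62, 32.7 ± 2.57 and 32.5 ± 2.89 CPM (SD, n = 8) in the C groups. The MS groups had 30.7 ± 2.14, 31.8 ± 3.03 and 30.5 ± 2.03 in the same order. Over all 8 libraries per group, the MS group was thus the lower of each pair by less than 1 SD. In the 6 fitted Tph2-/- MS libraries the mean was 29.7 ± 1.5 CPM, further below the controls. Over genotypes the log2 fold change of Oprm1 with MS was -0.07 ± 0.04 (SE, adjusted p = 0.304), with a 95% interval of -0.14 to 0.00. The late controls S42 to S48 were themselves lower than the early controls, by -0.12 ± 0.06 (edgeR adjusted p = 0.635). With a term for them the MS effect was -0.10, and without S18 to S26 it was -0.04. Oprm1 lies on chromosome 10, as Tph2 does, but 108 Mb away. Oprm1 did not differ detectably between Tph2-/- and Tph2+/+ (-0.01 ± 0.05, interval -0.10 to 0.08), and loci 9 to 13 also overlap the gene Ipcef1.

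Oprd1, in the same order of genotypes, had 32.1 ± 2.70, 33.3 ± 4.28 and 32.9 ± 3.12 CPM in the C groups and 34 ± 3.22, 32.8 ± 3.09 and 34.5 ± 5.05 in the MS groups. Its log2 fold change with MS over genotypes was 0.03 ± 0.05 (interval -0.05 to 0.12). It was -0.06 without S18 to S26 and -0.03 with the CpG slope as covariate, so its direction turned with the libraries and the term used. Cnr1 ranged from 7.88 ± 0.580 CPM in Tph2-/- C to 9.17 ± 1.07 in Tph2+/- MS, and its MS effect over genotypes was 0.07 ± 0.07 (interval -0.06 to 0.20), or 0.15 without S18 to S26 and 0.11 with the CpG slope as covariate. Cnr1 in Tph2-/- against Tph2+/+ gave -0.11 ± 0.08 (edgeR adjusted p = 0.968), and -0.01 without S18 to S26.

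The 2 receptor genes with a single locus were measured much less precisely. Oprk1, with 2 to 32 counts per library and a median of 14.5, had 1.57 ± 0.429 CPM in the controls and 1.12 ± 0.760 in the separated mice of Tph2+/+. Its MS effect in Tph2+/+ was -0.48 ± 0.31, with an interval of -1.09 to 0.12. One library of this MS group, replicate 7, had 2.67 CPM, above every Tph2+/+ control. Without it, a choice made after seeing the data, the MS mean was 0.893 ± 0.459 CPM (n = 7) and the effect -0.76 ± 0.31 (edgeR adjusted p = 0.647, unadjusted p under 0.05 but not under 0.01). Oprl1, with 10 to 57 counts, went from 2.94 ± 0.553 CPM in C to 2.53 ± 0.888 in MS among Tph2+/+ mice, and from 2.67 ± 0.739 to 3.13 ± 0.732 among Tph2+/- mice, differences within their spread. GE1 at Oprl1 was 0.44 ± 0.27 (interval -0.08 to 0.96). Changes as large as the bounds of these intervals are not excluded at this depth.

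Among the enzymes, Dagla had 20.2 ± 2.63, 21.2 ± 2.79 and 22.3 ± 3.05 CPM in the C groups, again from Tph2+/+ to Tph2-/-. The MS groups stood at 21 ± 2.71, 21.5 ± 3.19 and 23.6 ± 4.12 in the same order. Tph2-/- against Tph2+/+ gave 0.13 ± 0.07 (edgeR adjusted p = 0.968), but 0.04 without S18 to S26 and 0.07 with the CpG slope as covariate. Faah had 6.71 ± 0.377, 6.26 ± 1.09 and 6.12 ± 0.764 CPM in the C groups and 7.16 ± 1.18, 7.05 ± 1.97 and 7.14 ± 0.931 in the MS groups. The MS mean of Faah was the higher in each genotype, and the change over genotypes was 0.17 ± 0.08 (edgeR adjusted p = 0.23). This was the 1 member test with an unadjusted p under 0.05. Without the libraries S18 to S26 it was 0.03, and with the CpG slope as covariate 0.09. Mgll had 48.2 ± 2.98, 47 ± 2.71 and 46.1 ± 3.54 CPM in the C groups and 50.6 ± 2.92, 46.6 ± 2.80 and 50.1 ± 5.60 in the MS groups. Its MS effect over genotypes was 0.06 ± 0.03 (edgeR adjusted p = 0.343), and 0.01 without S18 to S26 or 0.03 with the CpG slope as covariate. Tph2+/- against Tph2+/+ gave -0.08 ± 0.04 (edgeR adjusted p = 1).

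At the level of loci, 5 of the 448 tests (56 loci in 8 contrasts) passed the limits, or 1.12%, against 1.21% of the tests of all loci. They were 2 of 56 for MS in Tph2-/- (1.48% of all loci), and 1 each for GE2 (0.558%), for Tph2+/- (0.546%) and for Tph2-/- (0.748%). There was no member call for GE1 (0.626%), for MS in Tph2+/+ (1.31%) or in Tph2+/- (0.779%), or for MS over genotypes (3.63%). An unadjusted p under 0.05 was reached in 15 of the 448 tests (3.35%), against 5.61% over all loci. For MS over genotypes it was 2 of 56 (3.57%), against 12.2% of all loci. At an adjusted p under 0.05 no member locus was called by edgeR, DESeq2 or limma, with 0.288 the smallest in edgeR. All loci gave 0.0128% for MS over genotypes, 0.00213% for Tph2+/-, 0.0139% for Tph2-/- and 0.0% elsewhere. Shares of member loci past the limits were thus near those of the table as a whole. The median log2 fold change of the member loci lay between -0.05 in GE2 and 0.02 for MS in Tph2-/-.

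**Figure D3:**
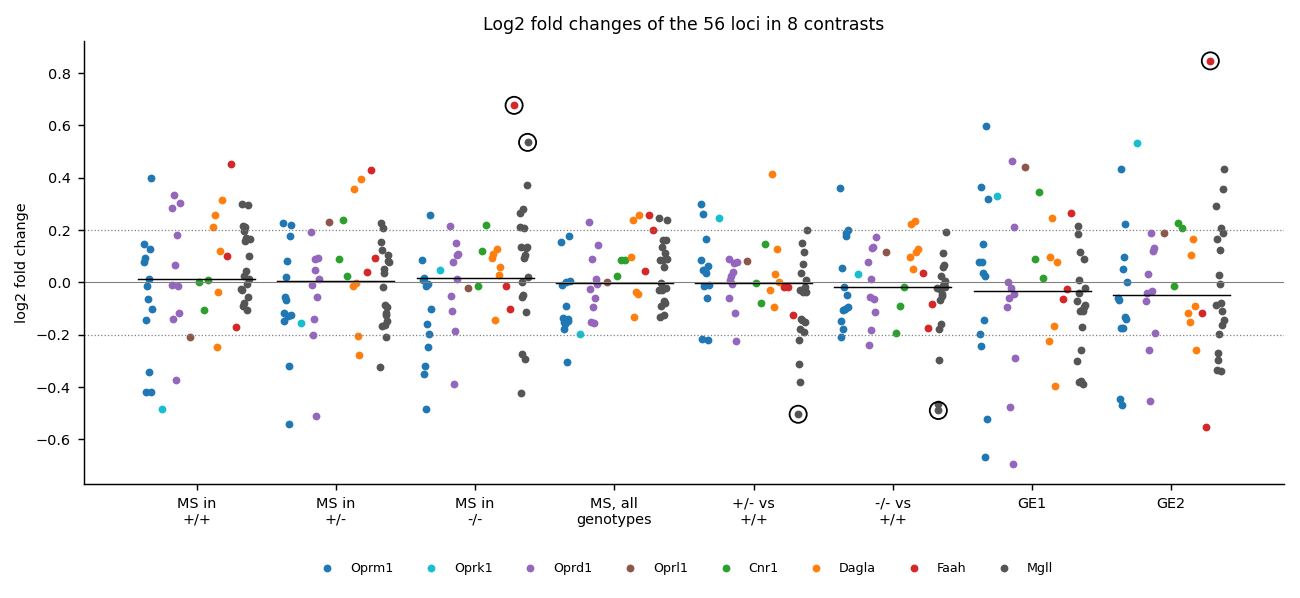
Log2 fold change (y axis) of each of the 56 loci, coloured by gene, in the 8 contrasts (x axis). Black rings mark the 5 tests past the limits, black lines the median of the member loci, and dotted lines a log2 fold change of 0.2 in either direction.

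Faah locus 1, at chr4:116021141-116022145 and 2304 bp before the nearest annotated start of Faah, held the largest of these differences. In the Tph2-/- control group it had 2.3, 1.67, 2.8, 2.12, 1.77, 2, 1.41 and 1.95 CPM in replicates 1 to 8. In Tph2-/- MS it had 2.28, 4.75, 3.73, 2.17, 3.29 and 3.05 CPM in the 6 fitted libraries, and 3.9 and 2.82 in the 2 left out. The MS libraries lay mostly above the controls, but 2 of those fitted fell within the range of the controls. The means were 2.00 ± 0.424 (n = 8) and 3.21 ± 0.961 CPM (n = 6), with a log2 fold change of 0.68 ± 0.22 (edgeR adjusted p = 0.655, unadjusted p under 0.01).

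Tph2+/+ mice did not show this at Faah locus 1. Their values ran from 2.09 through a median of 2.86 to 3.72 CPM in C, and from 1.82 through 2.4 to 3.93 in MS, a log2 fold change of -0.17 ± 0.20. GE2 was therefore 0.85 ± 0.30 (edgeR adjusted p = 1, unadjusted p under 0.01). GE1 was 0.26 ± 0.29, with Tph2+/- means of 2.37 ± 0.826 CPM in controls and 2.52 ± 0.821 after MS. The Tph2-/- C group was the lowest of the 3 control groups at this locus, and the Tph2-/- MS group the highest of all 6.

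The order of the libraries moved with the level of Faah locus 1. For Tph2-/- MS mice, left-out libraries included, the numbers S18 to S26 had a mean of 3.67 ± 1.03 CPM (n = 4) and the numbers S27 to S41 one of 2.83 ± 0.482 (n = 4). In Tph2-/- C it was 2.13 ± 0.453 (n = 5) in S1 to S17 and 1.79 ± 0.327 (n = 3) in S42 to S48. The change no longer passed the limits in 5 of the alternatives. Its value there was 0.49 without S18 to S26, 0.53 with the CpG slope as covariate, 0.54 with Tph2-/- MS replicates 2 and 3 left out instead, 0.56 with limma voom and 0.57 with a term for late sample numbers. The other Faah loci, 2 and 3 in coding exons, had no p under 0.05 in any contrast.

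**Figure D4:**
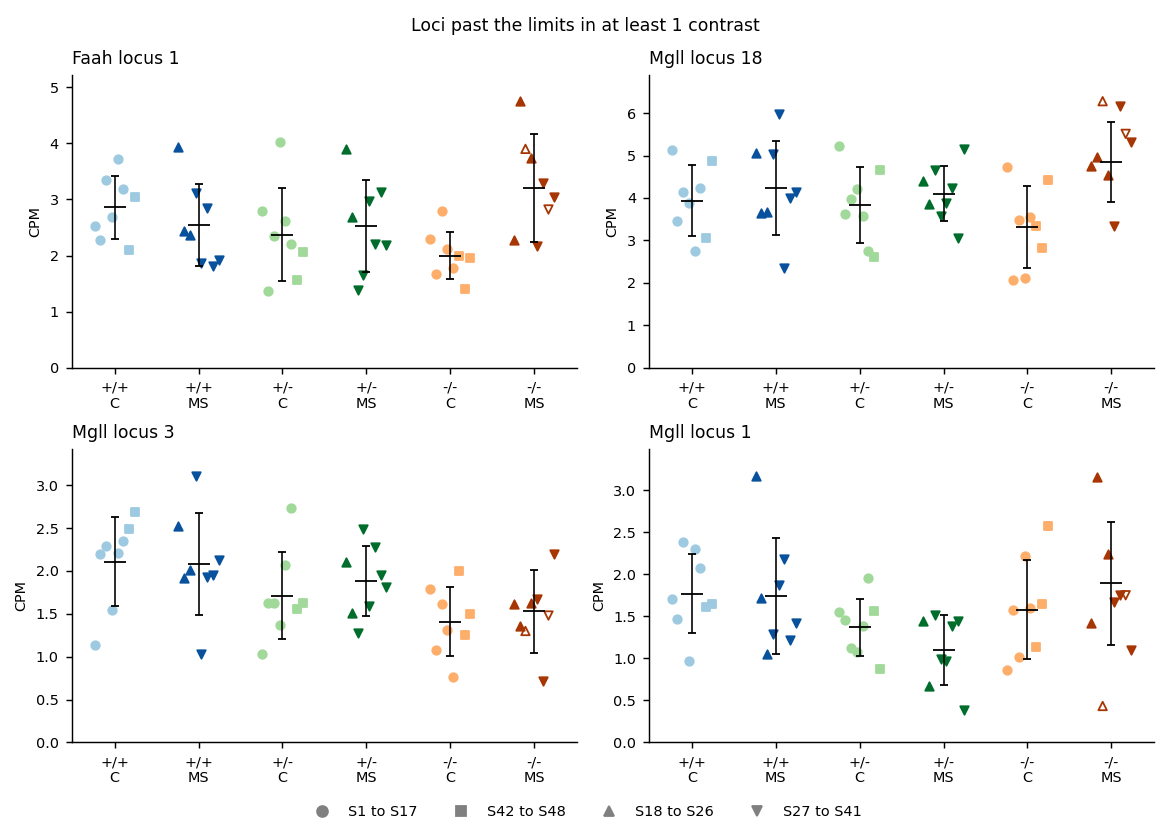
CPM (y axis) at the 4 loci past the limits in the 6 groups (x axis), with 1 point per library and its shape giving the run of sample numbers. Open points are the 2 libraries not fitted, and black bars the mean ± SD of the fitted ones. The groups overlap at all 4 loci.

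Mgll locus 18, at chr6:88822726-88823797, overlaps a coding exon and has the highest mean of the 19 Mgll loci (4.09 CPM). The Tph2-/- controls had 4.74, 2.06, 3.48, 2.12, 3.54, 3.33, 2.82 and 4.42 CPM. In the fitted Tph2-/- MS libraries it had 4.75, 4.97, 4.55, 3.34, 6.17 and 5.33, and 6.28 and 5.51 in those left out. All but 2 of these 8 values exceeded every control. The log2 fold change was 0.54 ± 0.18 (edgeR adjusted p = 0.655, unadjusted p under 0.01), with the means at 3.31 ± 0.969 and 4.85 ± 0.936 CPM. It was 0.10 ± 0.17 in Tph2+/+ and 0.08 ± 0.17 in Tph2+/-, and the difference GE2 was 0.43 ± 0.25 with an interval of -0.05 to 0.92, so a difference between genotypes was not shown. Within Tph2-/- MS the numbers S18 to S26 (5.14 ± 0.781 CPM, n = 4) and S27 to S41 (5.09 ± 1.22, n = 4) differed by less than their SD. Of the alternatives tried, it no longer passed the limits in the one without S18 to S26, where it was 0.55 with fewer libraries.

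The other 2 calls at Mgll concerned genotype and lay near its 5′ end, where loci 1 to 3 also overlap the predicted gene Gm26588. Mgll locus 3, an intron locus at chr6:88734788-88735573, was lower in Tph2-/- than in Tph2+/+ by -0.49 ± 0.17 (edgeR adjusted p = 1, unadjusted p under 0.01). Means for C and MS were 2.11 ± 0.515 and 2.08 ± 0.592 CPM in Tph2+/+, 1.71 ± 0.508 and 1.88 ± 0.410 in Tph2+/-, and 1.41 ± 0.398 and 1.53 ± 0.484 (n = 6) in Tph2-/-. The lowest Tph2+/+ libraries, at 1.14 and 1.03 CPM, lay within the range of the Tph2-/- libraries. Without S18 to S26 it was -0.47 and no longer passed. The neighbouring locus 2 had -0.47 ± 0.20 in the same contrast (edgeR adjusted p = 1). Mgll locus 2 did pass the limits with all 48 libraries (-0.52), with Tph2-/- MS replicates 2 and 3 left out instead (-0.53) and with the CpG slope as covariate (-0.53).

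Mgll locus 1, upstream of the gene at chr6:88722900-88723531 and 881 bp from the nearest start, was lower in Tph2+/- than in Tph2+/+ by -0.50 ± 0.19 (edgeR adjusted p = 1, unadjusted p under 0.01). Tph2+/+ controls and MS mice had 1.77 ± 0.465 and 1.74 ± 0.687 CPM, against 1.37 ± 0.339 and 1.1 ± 0.416 in Tph2+/-. Tph2-/- mice did not follow, with 1.58 ± 0.587 and 1.89 ± 0.729 (n = 6) and a difference from Tph2+/+ of -0.02 ± 0.19. It no longer passed the limits with limma voom (-0.49), with all 48 libraries (-0.50) or without S18 to S26 (-0.45).

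The loci nearest the starts of the other genes passed no limit in the edgeR fit of the 46 libraries. They were Oprm1 locus 1 in an intron, Oprd1 locus 2 in an intron 1841 bp from the start, Cnr1 locus 1 in an intron, Dagla locus 1 over coding and untranslated exon sequence, and the single loci of Oprk1 and Oprl1. Dagla locus 1 came closest, with C and MS means of 3.05 ± 0.646 and 3.80 ± 0.737 CPM in Tph2+/+, 3.00 ± 0.908 and 3.91 ± 0.846 in Tph2+/-, and 3.65 ± 0.647 and 4.16 ± 1.22 in Tph2-/- (n = 8 each). Its MS effect over genotypes was 0.26 ± 0.10 (edgeR adjusted p = 0.288). Dagla locus 1 did pass the limits with all 48 libraries (0.29 ± 0.10). It also passed with Tph2-/- MS replicates 2 and 3 left out instead (0.28 ± 0.10). Oprm1 locus 1 was 0.36 ± 0.16 higher in Tph2-/- than in Tph2+/+ (edgeR adjusted p = 1). Unadjusted p under 0.05 but not under 0.01 also stood behind an MS effect of 0.30 ± 0.14 at Oprd1 locus 1 in Tph2+/+ and effects of -0.54 ± 0.26 at Oprm1 locus 10 and -0.51 ± 0.25 at Oprd1 locus 4 in Tph2+/-. The same held for Tph2+/- against Tph2+/+ at Dagla locus 5 (0.42 ± 0.16) and Mgll locus 4 (-0.38 ± 0.19). Dagla locus 5 did pass the limits without S18 to S26 (0.46) and with Tph2-/- MS replicates 2 and 3 left out instead (0.42). It also passed with the CpG slope as covariate (0.39) and with the replicate number as a block (0.40). At Oprd1 the 2 loci thus had opposite signs, in different genotypes.

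Oprd1 locus 10, singled out after its values were seen, is the CpG-densest of the 56 loci, with 62 CpGs in 1284 bp over coding and untranslated exon sequence. Its spread between libraries within groups was wider than that of 98.2% of the loci with similar mean counts it was set against. Its level went with the CpG slope of the library (Spearman's rho = 0.746 over 48 libraries, all counted in the same libraries). The slope was fitted to these same counts over CpG density, so a CpG-dense locus tends to rise with it by construction. Among the MS mice numbered S18 to S26 the means were 7.44 ± 3.43 CPM (n = 3), 7.67 ± 3.25 (n = 2) and 8.69 ± 2.27 (n = 4) from Tph2+/+ to Tph2-/-. Those numbered S27 to S41 had 4.83 ± 1.09 (n = 5), 5.29 ± 1.05 (n = 6) and 4.14 ± 1.42 (n = 4). The MS mice of the earlier numbers were thus higher than those of the later ones in each genotype. Controls of S1 to S17 had 5.28 ± 0.905, 5.67 ± 1.11 and 5.38 ± 1.47 CPM, so the means of S18 to S26 lay above those of these early controls and the means of S27 to S41 below. The late controls S42 to S48 had 3 ± 0.0495 (n = 2), 3.6 ± 0.134 (n = 2) and 4.52 ± 1.41 CPM (n = 3), below S27 to S41 in Tph2+/+ and Tph2+/- and above them in Tph2-/-. Late against early controls gave -0.53 ± 0.21 (edgeR adjusted p = 0.606). Its MS effect over genotypes was 0.23 ± 0.14 (edgeR adjusted p = 0.524). The summed Oprd1 signal, which includes locus 10, had a rho of 0.55 with the CpG slope within groups (46 libraries). Dagla had 0.425, Faah 0.352, Mgll 0.285, Oprl1 0.224 and Oprk1 0.129, while Cnr1 had -0.341 and Oprm1 -0.197. These sums also come from the counts to which the slope was fitted.

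**Figure D5:**
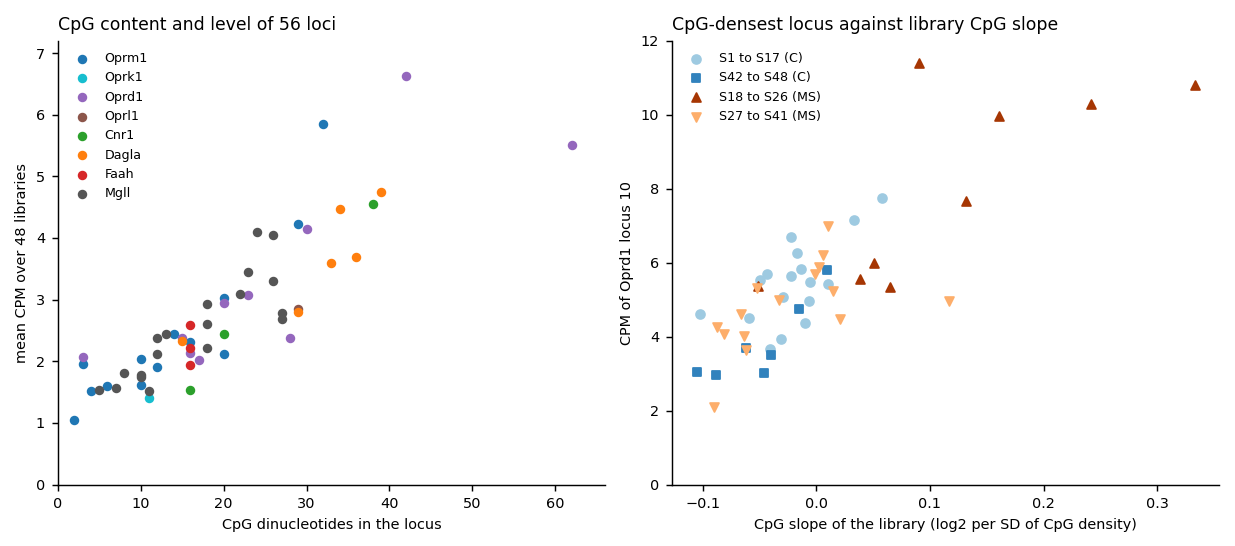
Left, mean CPM over 48 libraries (y axis) against the number of CpGs (x axis) for the 56 loci, coloured by gene. Right, CPM of Oprd1 locus 10 (y axis) in each library against the CpG slope of that library (x axis), with libraries marked by their run of sample numbers.

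Early and late controls differed at 2 of the 56 loci at the same limits (3.57%, against 1.74% of all loci), both in introns of Oprm1. Oprm1 locus 6, with 3 CpGs in 796 bp, was lower in the late controls by -0.69 ± 0.23 (edgeR adjusted p = 0.487), and locus 7 by -0.44 ± 0.17 (edgeR adjusted p = 0.567). Oprm1 locus 6 also passed the limits for MS in Tph2-/- once S18 to S26 were left out (-1.01 ± 0.35, edgeR adjusted p = 0.841). It did so with the CpG slope as covariate too (-0.73 ± 0.27). For MS over genotypes it passed without S18 to S26 (-0.47 ± 0.17, edgeR adjusted p = 0.764). Its Tph2-/- means were 2.12 ± 0.823 CPM in controls and 1.48 ± 0.711 after MS over all 8 libraries each.

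The rest of both systems was read from a list of 21 further genes, of which 16 had a locus. It covers opioid peptides and their processing (Penk, Pdyn, Pnoc, Pcsk2) and other enzymes that make or degrade endocannabinoids (Daglb, Napepld, Abhd4, Abhd6, Abhd12, Naaa, Pla2g4e). It also covers receptors (Cnr2, Gpr55, Trpv1), the carrier gene Fabp5 and the arrestin gene Arrb2. No locus lay within 5 kb of Pomc, Pcsk1, Gde1, Cnrip1 or Ptgs2. Of the 128 tests, 1 passed the limits (0.781%, against 1.18% of all gene tests), and 8 had an unadjusted p under 0.05 (6.25%, against 6.81%). The call was an increase of Pcsk2, a convertase that cuts opioid precursors, with MS over genotypes, the contrast in which 3.21% of all genes passed. Its log2 fold change was 0.29 ± 0.09 (edgeR adjusted p = 0.115, DESeq2 adjusted p = 0.0348). Without S18 to S26 it was 0.05 and with the CpG slope as covariate 0.09, and in neither did it pass the limits. The median log2 fold change of the 16 genes with MS over genotypes was 0.03, against 0.02 for all genes.

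After removal of group means, the 28 pairs of member genes had Spearman's rho from -0.267 to 0.424 with a median of -0.03 over the 46 fitted libraries. The protein-coding gene most like each member, sharing no locus with it, was Ptprs for Oprd1 (rho = 0.708), Coro2a for Dagla (0.684), Kcnj1 for Cnr1 (0.642), Pde4a for Mgll (0.602), Dcdc2a for Faah (0.6), Fdft1 for Oprl1 (0.594), Cdk5rap2 for Oprm1 (0.583) and Rhoh for Oprk1 (0.567). Each was the highest of about 16908 correlations in the same libraries and is given as a description.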

How the data were processed

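MBD-captured amygdala DNA of 48 mice was sequenced for the authors by a service provider as pairs of 50 bp reads, mapped to GRCm38 with Bowtie2 2.1.0, and counted with DiffBind 2.0.9 in merged MACS peaks. The deposited table holds raw read counts per locus and library, with no normalization. How duplicate and repeat reads were treated is not given in the sources used here. Even values made up 55 to 76% of nonzero counts per library, the pattern left by counting the mates of one pair separately, so counts are not all separate molecules. Counts depend on CpG density, and on copy number as well as methylation.

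Loci were assigned to RefSeq GRCm38.p6 genes with 5 kb on each side, and summed per gene. The counts were tested with edgeR 4.0.16 in R 4.3.3 (TMM, robust quasi-likelihood, 1 term per group, 46 libraries, 8 contrasts) over all 187695 loci and over all 35444 genes with a locus. The fits were tested on simulated data. The SE is the log2 fold change divided by the root of F, and intervals are 1.96 SE on each side. Alternatives were DESeq2 1.42.0, limma 3.58.1 voom with quality weights, other size factors, a mean count of 10 or more, all 48 libraries, other left-out libraries, covariates, the replicate number as a block, and other gene windows. The text names all members and, for each, its highest locus, the locus nearest a start, loci past the limits, pathway genes past the limits and the most alike gene. Members, lists and tests were chosen with earlier results of these data known.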

Additional observations from a re-analysis of the deposited data

Results flagged for a closer look

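The MS effect at Faah locus 1 differed between Tph2-/- and Tph2+/+ mice by 0.85 on the log2 scale (GE2), the one interaction among the member loci past the limits. Its adjusted p was 1 in edgeR. Across alternatives the value lay between 0.71 and 0.85, and it no longer passed the limits with voom, without S18 to S26, or with Tph2-/- MS replicates 2 and 3 left out. The CpG slope of the libraries differed along the sample numbers as given above, and with it as a covariate the value was 0.78.

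In 72 groups of 8 libraries (8 genes and the 4 called loci in 6 groups each), 2 single libraries stood apart from the others of their group by Dixon's criterion, and chance gives about 1 in 20. Tph2+/+ MS replicate 7 had 2.67 CPM at Oprk1, where the next library had 1.43, and without it the MS effect in Tph2+/+ was -0.76 in place of -0.48. Tph2-/- MS replicate 8 had 12 CPM at Cnr1, where the next had 9.01, and without it the MS effect in Tph2-/- was -0.03 in place of 0.10.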

How the results depend on the processing

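At the limits, 353 counts of calls stayed within 1.5 times the reported count and 31 did not, each by 1 to 3 calls. Most reported counts were 0, and a 0 that stayed 0 is among the 353. An equal count can also hide a change of locus. With the CpG slope, Oprm1 locus 6 took the place of Faah locus 1 for MS in Tph2-/-. Without S18 to S26, Dagla locus 5 took the place of Mgll locus 1 for Tph2+/-. Member loci called in GE2 went from 1 to 0 with voom, with Tph2-/- MS replicates 2 and 3 left out in place of the lowest totals, without S18 to S26 and with the gene body alone. For MS over genotypes they went from 0 to 1 with all 48 libraries, with those replicates left out and without S18 to S26. The locus was Dagla locus 1 with all 48 libraries and with those replicates left out, and Oprm1 locus 6 without S18 to S26. For MS in Tph2-/- member loci called went from 2 to 1 with voom, with those replicates left out and without S18 to S26. The same drop came with a term for late sample numbers and with the gene body alone. Without S18 to S26 the 1 call was Oprm1 locus 6, which was not among the reported 2. For Tph2+/- member loci called went from 1 to 0 with voom, all 48 libraries and the gene body alone. They went to 2 with those replicates left out and with the CpG slope, where Dagla locus 5 was added. For Tph2-/- member loci called went from 1 to 2 with all 48 libraries, those replicates left out and the CpG slope, where Mgll locus 2 was added. They went to 0 without S18 to S26. Pathway genes called went from 0 to 1 in GE2 (voom, all 48 libraries, those replicates left out), from 1 to 0 for MS over genotypes (voom, without S18 to S26, CpG slope), from 0 to 1 for MS in Tph2+/+ (voom), and from 0 to 1 (DESeq2) or 3 (all 48 libraries) for MS in Tph2-/-. The gene body alone holds fewer loci. The run without S18 to S26 holds fewer samples, and there, as for the others, the cause was not tested. No member gene passed the limits and no member had an adjusted p under 0.05 in any of these alternatives (smallest 0.108 for loci, 0.175 for genes).

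The 5 called tests and Pcsk2, with 9 further gene changes, kept their direction throughout, and 16 of their values under an alternative no longer passed. Among gene changes past no limit, Oprd1 with MS over genotypes turned to -0.0005 with voom, -0.0571 without S18 to S26 and -0.03 with the CpG slope, and Oprm1 in Tph2-/- against Tph2+/+ to 0.0095 with all 48 libraries, 0.011 with Tph2-/- MS replicates 2 and 3 left out, 0.0007 with a term for late sample numbers and 0.0027 with the CpG slope. Cnr1 with MS in Tph2-/- was -0.0324 without Tph2-/- MS replicate 8, chosen after seeing the data. The cause was not tested. The replicate numbers did not pair the samples. Deviations of same-numbered samples in 24 pairs correlated between -0.137 and 0.135, 2 of them over 0.1, and 6 samples correlated best with their own number. With the replicate number as a block, member loci called for Tph2+/- went from 1 to 2, with Dagla locus 5 added, and no other count changed. Counts at a single locus were low, with a median SE of 0.21 to 0.22 for MS within 1 genotype, which limits what could be detected.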
